A study of Homo sapiens with 4 samples.

Results

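Carriers of amino acids, neurotransmitters and related small molecules were examined as the genes whose symbol belongs to the solute carrier (SLC) families 1, 3, 6, 7, 36, 38 or 43. Of 17687 genes measured, 59 carried such a symbol, each through 1 probe set, and the rule reads symbols only. RNA came from KGN cells, a human cell line derived from a granulosa cell tumour. Cells of the group siYT+8Br-cAMP received siRNAs against YAP and TAZ at 5 nM each and, in fresh medium from 48 h after transfection, 0.5 mM 8Br-cAMP for 24 h. The siYT cells had the same siRNAs and medium without 8Br-cAMP. The siNC+8Br-cAMP cells had 10 nM of control siRNA and the 8Br-cAMP medium, and the siNC cells had the control siRNA and medium without it. YAP and TAZ are transcriptional coactivators held in check by the Hippo pathway, and 8Br-cAMP is a membrane-permeable analogue of cyclic AMP, the messenger of gonadotropins in granulosa cells. Each of the 4 groups was 1 Clariom S Human array, so no difference could be set against a spread between cultures.

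Amino acids are polar and cross membranes through carriers. Members of SLC1 take up glutamate or small neutral amino acids with sodium. Most SLC6 members couple neurotransmitters, taurine, creatine or amino acids to sodium and chloride. The light chains of SLC7 work as dimers with a heavy chain of SLC3, and many of them exchange an amino acid on one side of the membrane for another on the other side. SLC38 members carry glutamine and other neutral amino acids, and some SLC36 members couple small amino acids to protons. SLC43A1 and SLC43A2 move large neutral amino acids without an ion gradient. In mouse follicles, granulosa cells take up some amino acids and pass them to the oocyte through gap junctions.

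The values are the deposited log2 signals. A difference of 1 is 2-fold only if the values are plain log2 signals, which the scale of the deposited values leaves uncertain. A call rests on size: the 2 arrays had to differ by 1 or more, with the higher value at or over 6.22, the median gene value (the level filter). Of the transporters, 28 reached this filter on at least 1 array, 23 of them on all 4, and 31 stayed under it everywhere, between 2.37 and 6.20. The 95th percentile of the 612 negative control probe sets of an array is called its background limit. Over it lay 18 transporters on all 4 arrays and 34 on none. The limit was 6.98 in siYT+8Br-cAMP and 7.29 in siYT, against 6.53 in siNC+8Br-cAMP and 6.94 in siNC. Signals of different probe sets are not on a common scale, so each transporter is compared only with itself. A limma model that adds up an siRNA effect and an 8Br-cAMP effect gave a mean difference with a standard error (SE) for every gene, adjusted over all 17687 genes. Its error contains the interaction and rests on 1 residual degree of freedom, so it is secondary to the sizes. Only genes with an adjusted p under 0.05 in it are said to have risen or fallen. With log2 of the linear value plus 32 in place of the deposited value, it passed 0 genes for either effect. All comparisons share the same 4 arrays, and an array of bulk RNA cannot tell fewer cells of a type from less RNA per cell.

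YAP1, which encodes YAP, was at 6.29 in siYT+8Br-cAMP and 6.80 in siYT, against 9.46 in siNC+8Br-cAMP and 9.48 in siNC. WWTR1, which encodes TAZ, was at 5.35 in siYT+8Br-cAMP and 5.45 in siYT, against 9.13 in siNC+8Br-cAMP and 7.58 in siNC. Both targets were lower on each siYT array than on its siNC partner. Of 9 measured granulosa markers, GATA4 lay over the background limit on all 4 arrays and CYP19A1 on 3. FOXL2, FSHR, AMHR2, INHA, NR5A1 and HSD17B1 lay under it on every array. Of 6 theca and stroma markers, 4 lay over it in both siYT groups and 2 in both siNC groups. Their mean level was 7.75 in siYT+8Br-cAMP and 8.67 in siYT, against 6.46 in siNC+8Br-cAMP and 6.74 in siNC. CYP17A1 and INSL3, which mark theca, stayed under the limit on every array. The 2197 positive control probe sets had a median siRNA difference of -0.35 with and -0.36 without 8Br-cAMP. Of 10 markers of epithelium, leukocytes, endothelium and neurons, 7 lay under the limit on every array, among them EPCAM, PTPRC, PECAM1 and RBFOX3. CD68 and SYT1 lay over it on all 4 arrays and SNAP25 on the 2 arrays with 8Br-cAMP. CD68, a macrophage marker, was at 13.15 in siYT+8Br-cAMP and 12.69 in siYT, against 10.33 in siNC+8Br-cAMP and 10.77 in siNC, and rose with YAP/TAZ siRNA (limma, adjusted p = 0.00192). CYP19A1, the aromatase of granulosa cells, was at 17.56 in siYT+8Br-cAMP and 14.26 in siYT, against 14.26 in siNC+8Br-cAMP and 5.04 in siNC, and rose with both agents (limma, adjusted p = 0.00321 for the siRNA and 0.00991 for 8Br-cAMP). FSHR, under the limit throughout, rose by 2.45 on average with the siRNA (limma, adjusted p = 0.000935). Limma does not take the limit into account, so this mean is not a measured size. These markers and the positive controls move with the siRNA, and their part in the siRNA differences of the transporters was not tested.

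**Figure D1:**
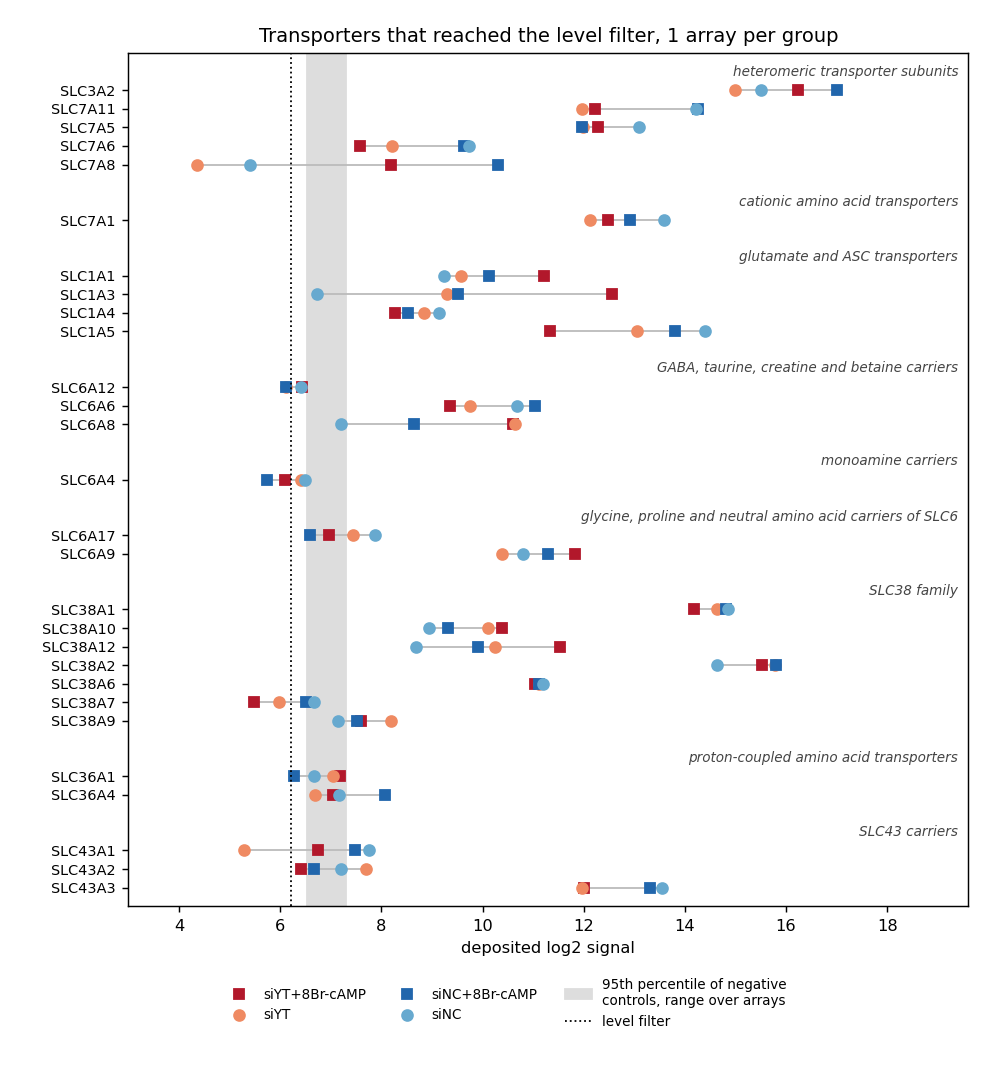
Deposited log2 signal (x axis) of the 28 transporters that reached the level filter, 1 row each and grouped by role, with 1 symbol per array. The dotted line is the level filter of 6.22 and the grey band is the range of the background limit over arrays, 6.53 to 7.29. SLC7A8 lies right of the band on both 8Br-cAMP arrays and left of the filter on the other two.

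The first comparison was of YAP/TAZ siRNA with control siRNA in each medium. The glial glutamate transporter SLC1A3, the creatine transporter SLC6A8, SLC38A10 and SLC38A12 were higher after YAP/TAZ siRNA in both media. The cystine carrier SLC7A11, the glutamine transporter SLC1A5, the light chain SLC7A6 and the purine carrier SLC43A3 were lower in both. Of the 59 transporters, 13 were called with 8Br-cAMP, 5 higher and 8 lower, where 11.5% of all genes were called, 5.52% higher and 5.94% lower. Without 8Br-cAMP 13 were called as well, 6 higher and 7 lower, against 14.9% of all genes, 7.6% higher and 7.32% lower. As a share of the transporters, 13 is 22.0%. With both differences at 1 or more in the same direction and the highest of the 4 arrays at the level filter, 9 were counted, against 7.33% of all genes: 4 higher and 5 lower, beside 3.44% and 3.89% of all genes. Of these 9, 8 were also called in each medium by itself. The ninth is SLC7A8, whose 2 values without 8Br-cAMP lie under the filter. The median over all 59 transporters was 0.06 with and -0.12 without 8Br-cAMP, and over all genes 0.06 and 0.02. Over the 28 transporters past the level filter it was -0.25 with and -0.35 without 8Br-cAMP. Over the 9750 genes past it the medians were -0.003 and 0.04. By limma 12 transporters passed, against 8.97% of all genes: 5 rose and 7 fell, beside 4.3% and 4.67% of all genes. These shares and medians describe 4 arrays and carry no test of the family.

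**Figure D2:**
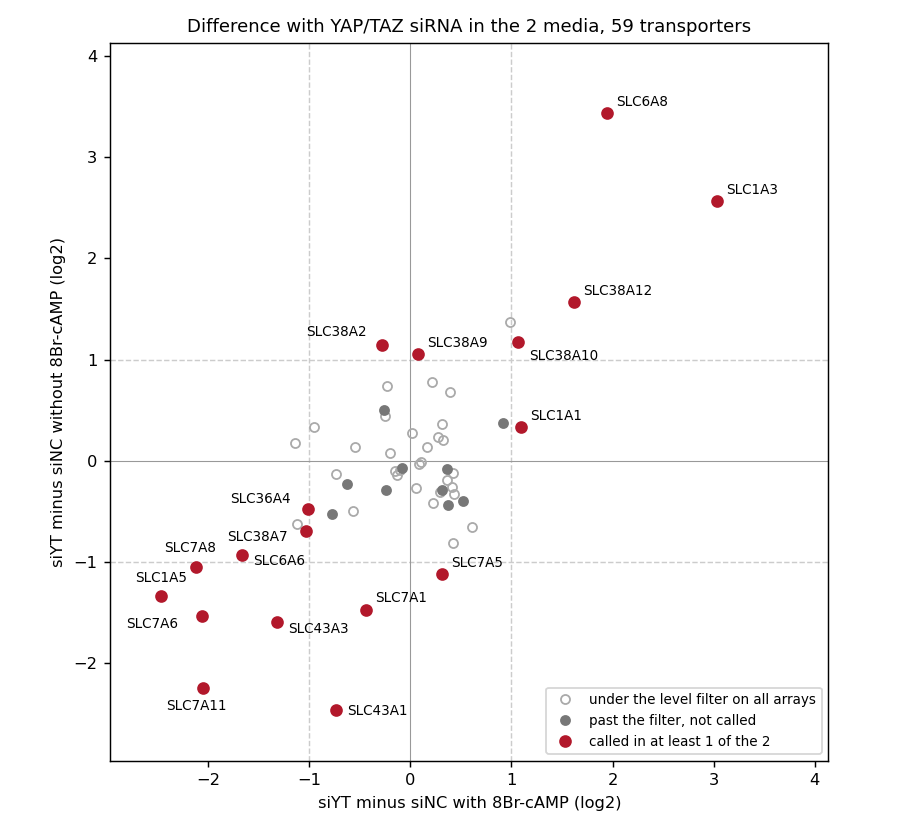
Difference of siYT minus siNC in log2 units, with 8Br-cAMP on the x axis and without it on the y axis, for the 59 transporters. Dashed lines mark differences of 1. SLC1A3, SLC6A8, SLC38A10 and SLC38A12 lie in the upper right corner, and SLC7A11, SLC1A5, SLC7A6, SLC43A3 and SLC7A8 in the lower left corner. SLC38A2 and SLC7A5 are among those past the threshold without 8Br-cAMP only.

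The second comparison was of 8Br-cAMP with its absence after each siRNA. SLC7A8, SLC1A3, the heavy chain SLC3A2 and SLC38A12 were higher with 8Br-cAMP after both siRNAs, and no transporter was lower after both. After siYT 9 of the 59 were called, 7 higher and 2 lower, where 8.21% of all genes were called, 4.06% higher and 4.15% lower. After siNC 8 were called, 6 higher and 2 lower, where 8.06% of all genes were called, 4.32% higher and 3.74% lower. After both siRNAs 4 were called, against 3.05% of all genes: the 4 higher stand beside 1.74% of all genes and the 0 lower beside 1.31%. The median over all 59 was -0.03 after siYT and -0.02 after siNC, and over all genes -0.02 and -0.03. Over the 28 transporters past the level filter it was 0.10 after siYT and -0.06 after siNC. Over the 9750 genes past it the medians were -0.01 and 0.04. By limma 2 transporters passed, against 1.81% of all genes: SLC7A8 and SLC1A3 rose and 0 fell, beside 1.15% and 0.662% of all genes. At an unadjusted p under 0.05, 10 of the transporters (16.9%) passed, and 14.7% of all genes.

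**Figure D3:**
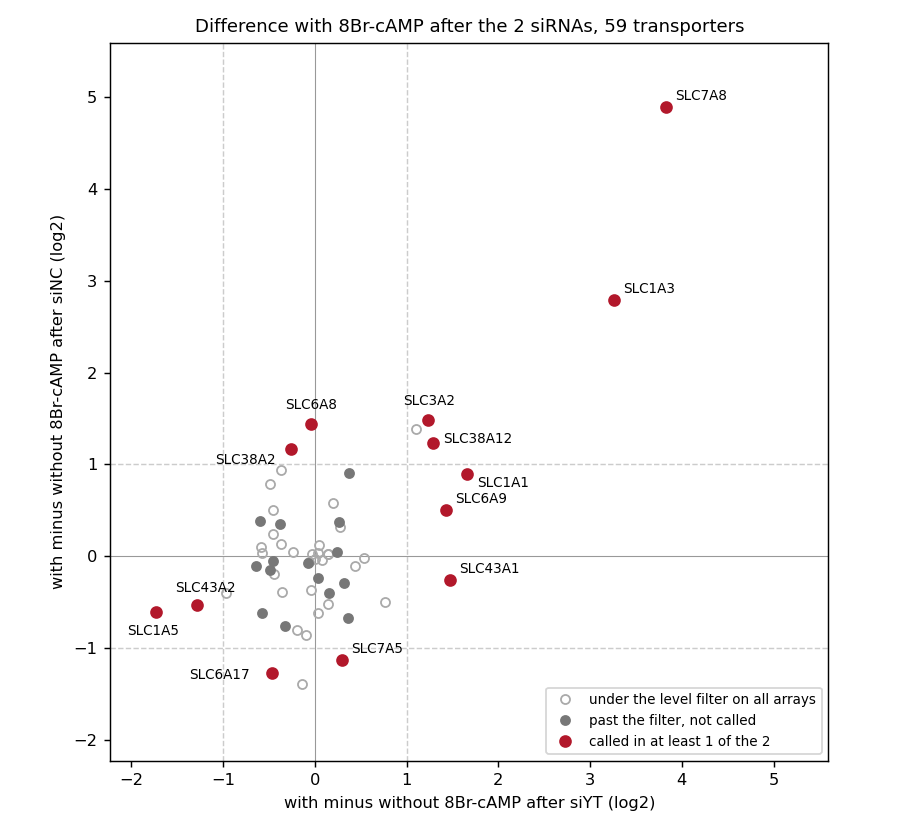
Difference with minus without 8Br-cAMP in log2 units, after siYT on the x axis and after siNC on the y axis, for the 59 transporters. Dashed lines mark differences of 1. SLC7A8 at 3.83 and 4.89 and SLC1A3 at 3.26 and 2.79 stand apart in the upper right. SLC1A5 lies past -1 after siYT only.

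Promoter windows of RefSeq (GRCh38.p14, 250 bases before to 50 after a transcription start) were found for 45 of the 59 transporters, 67 windows in all, since a gene can have several starts. They were searched on both strands for the cAMP response element TGACGTCA, the composite site of ATF4 and C/EBP TGATGNAA, the TEAD site GGAATG, through which YAP and TAZ reach DNA, and the AP-1 site TGANTCA. The cAMP response element was in 0 of the 67 windows and in 1.85% of all 35116 windows. The composite site was in 6 windows (8.96%, against 3.62% of all windows), the TEAD site in 7 (10.4%, against 14.0%) and the AP-1 site in 11 (16.4%, against 7.71%). No match overlapped another. A match of letters is a description, not a site in use, and windows of 1 gene can overlap. For the 4 transporters with the largest mean differences among those counted in the same direction in both media or after both siRNAs, and with a window, 1 window each is printed, picked after the matches were seen where a gene has several. Sequences run 5′ to 3′ on the strand of the gene, with matches in capitals to show where the letters lie.
SLC7A8, chr14:23155271-23155570, minus strand: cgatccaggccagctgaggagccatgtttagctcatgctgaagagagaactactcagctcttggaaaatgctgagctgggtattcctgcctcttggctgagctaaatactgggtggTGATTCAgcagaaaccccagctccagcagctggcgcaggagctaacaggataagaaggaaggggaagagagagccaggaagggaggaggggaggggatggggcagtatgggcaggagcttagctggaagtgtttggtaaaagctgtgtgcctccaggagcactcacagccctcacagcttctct
SLC1A3, chr5:36596338-36596637, plus strand: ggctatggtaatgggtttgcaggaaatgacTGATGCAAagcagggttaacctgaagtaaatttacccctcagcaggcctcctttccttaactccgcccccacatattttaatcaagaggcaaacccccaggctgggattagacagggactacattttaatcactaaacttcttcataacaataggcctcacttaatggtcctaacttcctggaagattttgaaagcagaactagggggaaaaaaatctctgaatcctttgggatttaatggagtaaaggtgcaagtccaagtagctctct
SLC6A8, chrX:153687676-153687975, plus strand: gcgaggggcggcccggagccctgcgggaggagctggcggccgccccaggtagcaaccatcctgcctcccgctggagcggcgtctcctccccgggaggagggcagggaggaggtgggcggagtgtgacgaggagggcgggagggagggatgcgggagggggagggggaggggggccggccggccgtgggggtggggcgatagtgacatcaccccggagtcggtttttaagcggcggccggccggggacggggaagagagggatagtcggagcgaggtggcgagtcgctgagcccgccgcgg
SLC1A5, chr19:46784765-46785064, minus strand: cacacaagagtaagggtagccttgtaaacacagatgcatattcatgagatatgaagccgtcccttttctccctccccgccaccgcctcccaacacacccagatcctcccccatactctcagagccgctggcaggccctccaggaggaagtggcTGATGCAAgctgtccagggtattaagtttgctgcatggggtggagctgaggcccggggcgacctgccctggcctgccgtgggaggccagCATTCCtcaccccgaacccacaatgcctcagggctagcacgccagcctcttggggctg
The capitals are TGATTCA, an AP-1 match, for SLC7A8, and this match lies in 2 overlapping windows of its 4. They are TGATGCAA, a composite match, in 1 of the 3 windows of SLC1A3. Of its other windows, not printed, 1 holds a TEAD match, CATTCC, and 1 holds AP-1 matches, TGAATCA and TGAGTCA. The single window of SLC6A8 holds none. In 1 of the 3 windows of SLC1A5 they are the composite match TGATGCAA and the TEAD match CATTCC. SLC3A2, SLC7A1, SLC1A4 and SLC38A1 also have a window with a composite match, and SLC1A4 and SLC38A1 were not called in any comparison.

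Among the subunits of heteromeric transporters, SLC7A8 lay over the background limit only with 8Br-cAMP. It encodes LAT2, an exchanger of neutral amino acids. It was at 8.19 in siYT+8Br-cAMP and 4.36 in siYT, against 10.31 in siNC+8Br-cAMP and 5.41 in siNC. Both arrays without 8Br-cAMP lay under the level filter and both arrays with it over the background limit. SLC7A8 reached the filter through the 2 arrays with 8Br-cAMP alone, so this separation is not separate support for the difference. Both values without 8Br-cAMP lie under the background limit, so the deposited differences of 3.83 after siYT and 4.89 after siNC are not measured sizes. Taken against the limit of the array without 8Br-cAMP, the difference was at least 0.90 after siYT and at least 3.36 after siNC. SLC7A8 passed limma on the deposited values (adjusted p = 0.000183), which does not take the limit into account. After YAP/TAZ siRNA SLC7A8 was lower, by a difference of -2.11 with and -1.05 without 8Br-cAMP, the second between 2 values under the filter (limma, adjusted p = 0.0191).

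SLC3A2, the heavy chain 4F2hc or CD98 that brings LAT1, LAT2, xCT and the y+L light chains to the cell surface, was at 16.23 in siYT+8Br-cAMP and 14.99 in siYT, against 17.00 in siNC+8Br-cAMP and 15.51 in siNC. Both arrays with 8Br-cAMP were above both without it. Its differences with 8Br-cAMP were 1.24 after siYT and 1.49 after siNC, and it did not pass limma (adjusted p = 0.0558). With YAP/TAZ siRNA it differed by -0.77 with and -0.52 without 8Br-cAMP and was not called. SLC3A1, the other heavy chain, stayed between 3.25 and 4.10, under the filter.

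SLC7A11 encodes xCT, which brings cystine into the cell in exchange for glutamate and so feeds glutathione synthesis. It was at 12.21 in siYT+8Br-cAMP and 11.97 in siYT, against 14.27 in siNC+8Br-cAMP and 14.22 in siNC. The 2 siYT arrays lay close together and both under the siNC arrays. SLC7A11 fell by 2.15 on average with YAP/TAZ siRNA (limma, SE 0.308, adjusted p = 0.002). With 8Br-cAMP it differed by 0.24 after siYT and 0.05 after siNC.

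SLC7A6, the y+LAT2 subunit that exports cationic amino acids in exchange for neutral ones, was at 7.57 in siYT+8Br-cAMP and 8.21 in siYT, against 9.63 in siNC+8Br-cAMP and 9.74 in siNC. It fell by 1.80 on average with YAP/TAZ siRNA (limma, SE 0.317, adjusted p = 0.00619). SLC7A5 encodes LAT1, the main importer of leucine and other large neutral amino acids in many dividing cells. It was at 12.27 in siYT+8Br-cAMP and 11.98 in siYT, against 11.96 in siNC+8Br-cAMP and 13.09 in siNC. The siNC array was the highest and the other 3 lay between 11.96 and 12.27. SLC7A5 was lower with YAP/TAZ siRNA without 8Br-cAMP (-1.12) and lower with 8Br-cAMP after siNC (-1.13), but differed by 0.31 between the 2 arrays with 8Br-cAMP. The other light chains of this group, SLC7A7, SLC7A9, SLC7A10 and SLC7A13, stayed between 2.39 and 4.28.

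Among the cationic amino acid transporters, SLC7A1, the arginine and lysine importer CAT1, was the only one of 5 to reach the level filter. It was at 12.48 in siYT+8Br-cAMP and 12.12 in siYT, against 12.91 in siNC+8Br-cAMP and 13.59 in siNC. The siRNA difference was -0.43 with and -1.47 without 8Br-cAMP, called only in the second, and limma did not pass it (adjusted p = 0.128). SLC7A2, SLC7A3, SLC7A4 and SLC7A14 stayed between 2.77 and 4.21.

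Among the glutamate and neutral amino acid transporters of SLC1, SLC1A3 was higher with both agents. SLC1A3 encodes EAAT1, also called GLAST, which takes up glutamate and aspartate with sodium and is best known from glia. It was at 12.55 in siYT+8Br-cAMP and 9.29 in siYT, against 9.51 in siNC+8Br-cAMP and 6.72 in siNC. The siNC array lay under its background limit, and against that limit the differences were at least 2.35 for the siRNA without 8Br-cAMP and at least 2.57 for 8Br-cAMP after siNC. The siYT and siNC+8Br-cAMP arrays were close to each other, and the array with both agents was the highest. SLC1A3 rose by 2.80 on average with YAP/TAZ siRNA (SE 0.315, adjusted p = 0.000475) and by 3.02 with 8Br-cAMP (limma, SE 0.315, adjusted p = 0.000999). The 2 siRNA differences, 3.04 with and 2.57 without 8Br-cAMP, differed by 0.47, under the threshold for a call.

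SLC1A1, the glutamate and cysteine transporter EAAT3, was at 11.22 in siYT+8Br-cAMP and 9.57 in siYT, against 10.13 in siNC+8Br-cAMP and 9.23 in siNC. It was higher with 8Br-cAMP after siYT (1.65) and under the threshold after siNC (0.89), and higher with YAP/TAZ siRNA in the 8Br-cAMP medium (1.09). Limma passed neither effect (adjusted p = 0.235 for the siRNA and 0.0872 for 8Br-cAMP).

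SLC1A5 encodes ASCT2, a sodium-dependent exchanger that brings glutamine into many dividing cells. It was at 11.33 in siYT+8Br-cAMP and 13.06 in siYT, against 13.80 in siNC+8Br-cAMP and 14.40 in siNC. Both siYT arrays lay under both siNC arrays, and the array with both agents was the lowest. SLC1A5 fell by 1.90 on average with YAP/TAZ siRNA (limma, SE 0.353, adjusted p = 0.00821). With 8Br-cAMP it differed by -1.73 after siYT and -0.60 after siNC (limma, adjusted p = 0.141). Its relative SLC1A4, the serine and alanine transporter ASCT1, was at 8.27 in siYT+8Br-cAMP and 8.85 in siYT, against 8.52 in siNC+8Br-cAMP and 9.13 in siNC and was not called in any comparison. SLC1A2, SLC1A6 and SLC1A7, the other glutamate transporters, stayed between 3.46 and 5.89.

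Within SLC6, SLC6A8 had the largest siRNA difference of the 59 without 8Br-cAMP. SLC6A8 is the creatine transporter. It was at 10.60 in siYT+8Br-cAMP and 10.64 in siYT, against 8.65 in siNC+8Br-cAMP and 7.21 in siNC. The 2 siYT arrays were nearly equal and above both siNC arrays. SLC6A8 rose by 2.69 on average with YAP/TAZ siRNA (limma, SE 0.385, adjusted p = 0.002), with differences of 1.95 with and 3.43 without 8Br-cAMP. 8Br-cAMP gave -0.05 after siYT and 1.44 after siNC.

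SLC6A6, the taurine transporter, was at 9.37 in siYT+8Br-cAMP and 9.75 in siYT, against 11.03 in siNC+8Br-cAMP and 10.68 in siNC. It fell by 1.29 on average with YAP/TAZ siRNA (limma, SE 0.327, adjusted p = 0.0345), and only the difference with 8Br-cAMP, -1.66, reached the size of a call. SLC6A9, the glycine transporter GlyT1, was at 11.82 in siYT+8Br-cAMP and 10.39 in siYT, against 11.30 in siNC+8Br-cAMP and 10.79 in siNC. It was higher with 8Br-cAMP after siYT (1.43) and differed by 0.50 after siNC (limma, adjusted p = 0.205). SLC6A17, known in rodents as a vesicular amino acid transporter of neurons, was at 6.97 in siYT+8Br-cAMP and 7.43 in siYT, against 6.59 in siNC+8Br-cAMP and 7.87 in siNC, and was lower with 8Br-cAMP after siNC (-1.27). It lay over the background limit on 3 arrays.

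The 6 carriers SLC6A2, SLC6A3, SLC6A4, SLC6A11, SLC6A12 and SLC6A13, of monoamines, GABA or betaine, lay under the background limit on all 4 arrays. SLC6A4, the serotonin transporter, was at 6.09 in siYT+8Br-cAMP and 6.41 in siYT, against 5.73 in siNC+8Br-cAMP and 6.49 in siNC, and was not called. SLC6A12, the betaine and GABA transporter, also reached the level filter on 2 arrays and was not called. SLC6A2, the noradrenaline transporter, lay between 5.06 and 6.20, and SLC6A3, the dopamine transporter, reached no more than 5.07. SLC6A3 passed limma for the siRNA (mean 1.17, SE 0.312, adjusted p = 0.0428) although all 4 of its values lay under the level filter and even the highest exceeded only 82.8% of the negative controls of its array. SLC6A11 and SLC6A13 stayed between 3.08 and 4.28, and 8 carriers of glycine, proline and neutral amino acids, among them SLC6A5, SLC6A14 and SLC6A19, between 2.37 and 5.94.

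In SLC38, 7 of 12 members reached the level filter. SLC38A12, with the older symbol TMEM104, was at 11.54 in siYT+8Br-cAMP and 10.25 in siYT, against 9.91 in siNC+8Br-cAMP and 8.69 in siNC. It was higher with each agent alone and highest with both. It rose by 1.59 on average with YAP/TAZ siRNA (limma, SE 0.306, adjusted p = 0.00985). With 8Br-cAMP its differences of 1.28 after siYT and 1.23 after siNC were called by size and did not pass limma (adjusted p = 0.0732). SLC38A10 was at 10.38 in siYT+8Br-cAMP and 10.12 in siYT, against 9.31 in siNC+8Br-cAMP and 8.95 in siNC. It rose by 1.12 on average with YAP/TAZ siRNA (limma, SE 0.307, adjusted p = 0.049).

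SLC38A2 encodes SNAT2, the system A transporter that is induced when amino acids are scarce. It was at 15.51 in siYT+8Br-cAMP and 15.77 in siYT, against 15.79 in siNC+8Br-cAMP and 14.63 in siNC. The siNC array was the lowest and the other 3 lay close together. SLC38A2 was higher with YAP/TAZ siRNA without 8Br-cAMP (1.14) and with 8Br-cAMP after siNC (1.16), and differed by -0.28 and -0.26 in the other 2 comparisons. Its close relative SLC38A1, SNAT1, was at 14.18 in siYT+8Br-cAMP and 14.63 in siYT, against 14.81 in siNC+8Br-cAMP and 14.85 in siNC and was not called. SLC38A6 stayed between 11.04 and 11.20 on the 4 arrays.

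SLC38A9, the arginine sensor of mTORC1 on lysosomes, was at 7.59 in siYT+8Br-cAMP and 8.19 in siYT, against 7.51 in siNC+8Br-cAMP and 7.13 in siNC. Only the siRNA difference without 8Br-cAMP, 1.06, was called, and it was 0.91 with an offset of 32. SLC38A7, a lysosomal glutamine exporter, was at 5.49 in siYT+8Br-cAMP and 5.98 in siYT, against 6.51 in siNC+8Br-cAMP and 6.67 in siNC. Its siRNA difference with 8Br-cAMP, -1.03, was called by a narrow margin and was -0.97 with each array centred, and all 4 values lay under the background limit. SLC38A3, SLC38A4, SLC38A5, SLC38A8 and SLC38A11 stayed between 2.38 and 4.67.

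Of the SLC36 family, SLC36A4, a carrier of proline and tryptophan, was at 7.05 in siYT+8Br-cAMP and 6.68 in siYT, against 8.06 in siNC+8Br-cAMP and 7.15 in siNC. Its siRNA difference with 8Br-cAMP was -1.01, just past the threshold, and -0.96 with each array centred on its median, which ends the call. SLC36A1, which moves amino acids out of lysosomes and across the cell surface, was at 7.19 in siYT+8Br-cAMP and 7.04 in siYT, against 6.27 in siNC+8Br-cAMP and 6.67 in siNC and was not called, with only the siYT+8Br-cAMP array over the background limit. SLC36A2 and SLC36A3 stayed between 2.38 and 4.05.

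All 3 SLC43 carriers reached the level filter and each was called at least once. SLC43A3, a carrier of purine nucleobases, was at 11.999 in siYT+8Br-cAMP and 11.96 in siYT, against 13.32 in siNC+8Br-cAMP and 13.55 in siNC. It fell by 1.46 on average with YAP/TAZ siRNA (limma, SE 0.309, adjusted p = 0.016). SLC43A1, the large neutral amino acid transporter LAT3, was at 6.75 in siYT+8Br-cAMP and 5.28 in siYT, against 7.49 in siNC+8Br-cAMP and 7.75 in siNC. The siYT array stood below the other 3 and under the level filter. SLC43A1 fell by 1.60 on average (limma, SE 0.409, adjusted p = 0.0365), with siRNA differences of -0.73 with and -2.47 without 8Br-cAMP. The siYT+8Br-cAMP and siYT values of SLC43A1 lie under the background limit. Limma does not take this limit into account, so the mean for SLC43A1 is not a measured size. Its 8Br-cAMP difference after siYT was 1.47, and 0.98 with an offset of 32, under the size of a call, and both arrays lie under the background limit. Against the limit of the siYT array, siNC was higher by at least 0.45. SLC43A2, LAT4, was at 6.41 in siYT+8Br-cAMP and 7.69 in siYT, against 6.66 in siNC+8Br-cAMP and 7.19 in siNC, and was lower with 8Br-cAMP after siYT (-1.29) but not called after siNC (-0.53). Its siYT+8Br-cAMP value lies under the background limit, and siYT was above that limit by 0.72.

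The third comparison asked whether 8Br-cAMP gave another difference after siYT than after siNC. It used the difference of differences: what 8Br-cAMP gave after siYT less what it gave after siNC. For 7 transporters it was called, 3 higher and 4 lower, where 8.39% of all genes were called, 3.57% higher and 4.82% lower. SLC43A1 (1.73), SLC7A5 (1.43) and SLC7A1 (1.04) had positive values: each was at its highest in siNC and lower with 8Br-cAMP after siNC, and was higher with 8Br-cAMP after siYT. For SLC43A1 the siYT+8Br-cAMP and siYT values both lie under the background limit, so its 1.73 is not a measured size. SLC6A8 (-1.49) and SLC38A2 (-1.42) were at their lowest in siNC and higher with 8Br-cAMP after siNC, and slightly lower with it after siYT. SLC1A5 (-1.13) was lower with 8Br-cAMP to a greater extent after siYT. SLC7A8 (-1.07) rests on 2 values under the level filter and was -0.97 with each array centred. The median over all 59 transporters was -0.0043 and over all genes 0.01.

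**Figure D4:**
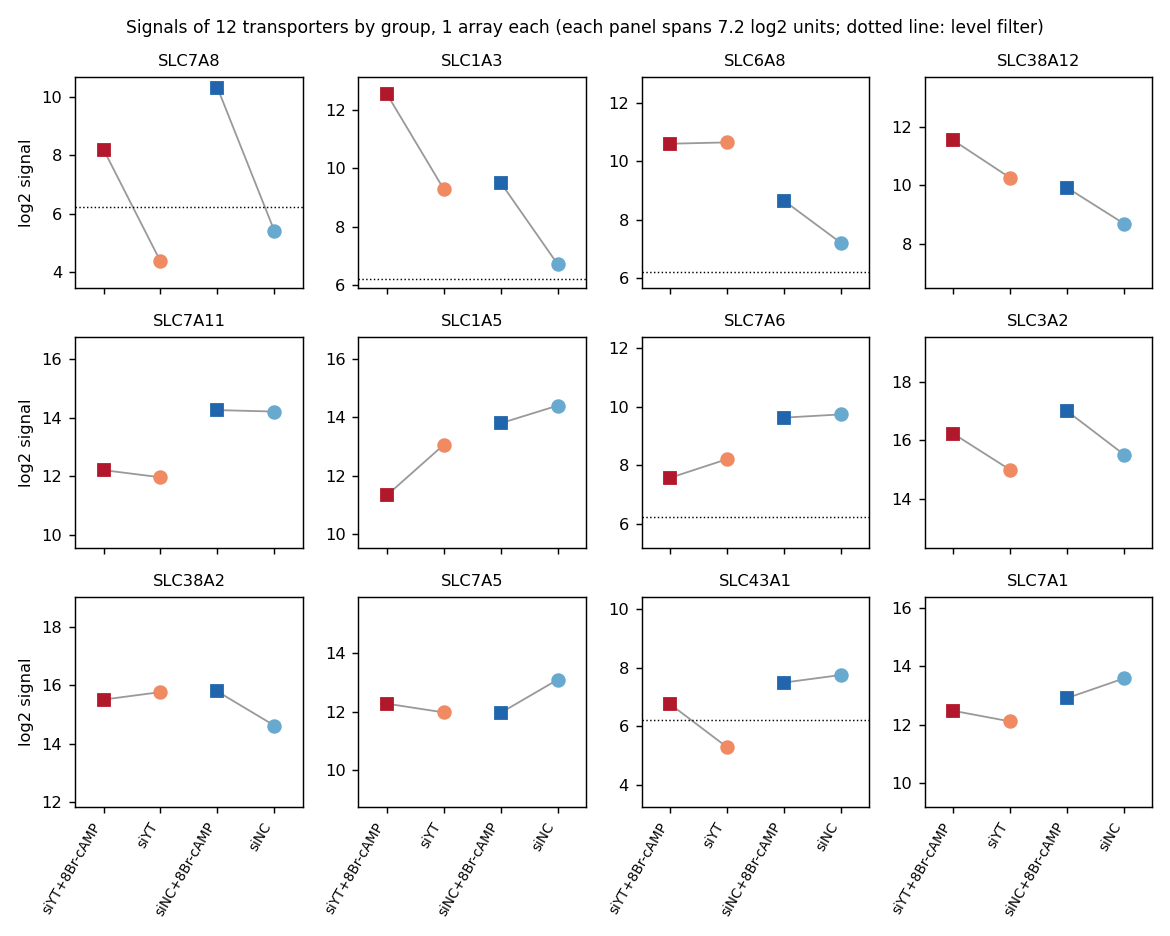
Deposited log2 signal of 12 transporters on the 4 arrays, in the order siYT+8Br-cAMP, siYT, siNC+8Br-cAMP and siNC. Each panel spans 7.2 log2 units, the dotted line is the level filter and grey lines join the 2 arrays of the same siRNA. Parallel lines, as for SLC38A12, stand for like 8Br-cAMP differences after both siRNAs, and lines of opposite slope, as for SLC7A5 and SLC43A1, for differences of opposite sign.

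Genes that use, sense or respond to amino acids were read beside the carriers. Of 27 measured genes of the amino acid response around the transcription factor ATF4, which is translated when amino acids are short and induces several carriers, 11 were called lower with YAP/TAZ siRNA in the 8Br-cAMP medium and 1 higher, and 10 lower and 3 higher without it. Over all genes 5.94% were lower and 5.52% higher with 8Br-cAMP, and 7.32% lower and 7.6% higher without it. With 8Br-cAMP 14 were lower and 1 higher after siYT, and 13 lower and 1 higher after siNC, where 4.15% and 3.74% of all genes were lower and 4.06% and 4.32% higher. Medians were -0.51 with and -0.55 without 8Br-cAMP for the siRNA, and -1.24 after siYT and -0.96 after siNC for 8Br-cAMP. By limma 8 fell and 1 rose with the siRNA, and 8 fell and 0 rose with 8Br-cAMP, where 8.97% and 1.81% of all genes passed in either direction. ASNS, the asparagine synthetase, was at 8.63 in siYT+8Br-cAMP and 12.16 in siYT, against 12.67 in siNC+8Br-cAMP and 14.00 in siNC. PSAT1, an enzyme of serine synthesis, was at 11.21 in siYT+8Br-cAMP and 14.38 in siYT, against 14.50 in siNC+8Br-cAMP and 16.43 in siNC. CHAC1, which degrades glutathione, was at 6.14 in siYT+8Br-cAMP and 8.05 in siYT, against 7.70 in siNC+8Br-cAMP and 11.51 in siNC. All 3 were highest in siNC and lowest in siYT+8Br-cAMP, and each fell with both agents (limma, adjusted p = 0.0033, 0.00146 and 0.00513 for the siRNA and 0.0277, 0.00601 and 0.0077 for 8Br-cAMP). STC2, of the same list, was at 10.52 in siYT+8Br-cAMP and 11.45 in siYT, against 13.44 in siNC+8Br-cAMP and 14.30 in siNC. Its mean difference was -2.89 for the siRNA, which passed limma, and -0.89 for 8Br-cAMP, which did not. SLC1A5 was also highest in siNC and lowest in siYT+8Br-cAMP. So were SLC7A6, SLC38A7 and, though never called, SLC1A4, SLC38A1 and SLC38A6. All values of SLC38A7 lay under the background limit, and those of SLC38A6 spanned only 11.04 to 11.20. The share of all genes with this order was not determined. SLC7A5 and SLC7A1 were highest in siNC but not lowest in siYT+8Br-cAMP. SLC38A2 was lowest in siNC, and SLC7A11 was highest in siNC+8Br-cAMP and lowest in siYT. SLC3A2 was higher with 8Br-cAMP after both siRNAs.

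Of 18 measured enzymes of glutamate, glutamine and glutathione, 3 were called lower with YAP/TAZ siRNA in the 8Br-cAMP medium and 6 without it, beside 5.94% and 7.32% of all genes, and 0 were higher in either. GCLM, the regulatory subunit of the enzyme that starts glutathione synthesis from the cysteine that SLC7A11 brings in as cystine, was at 9.25 in siYT+8Br-cAMP and 9.16 in siYT, against 11.25 in siNC+8Br-cAMP and 11.22 in siNC. It fell by 2.03 on average (limma, adjusted p = 0.00268). For 8Br-cAMP 3 were lower and 1 higher after siYT and likewise after siNC, where 8.21% and 8.06% of all genes were called. ASNS and CHAC1, described above, also belong to this list and are 2 of its 3 members lower in both media.

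Of 17 measured genes of serine, glycine and taurine metabolism, 5 were called lower with YAP/TAZ siRNA in each medium and 0 higher, beside 5.94% lower of all genes with 8Br-cAMP and 7.32% without it, with medians of -0.46 with and -0.74 without 8Br-cAMP. PHGDH, the first enzyme of serine synthesis, was at 9.44 in siYT+8Br-cAMP and 10.69 in siYT, against 11.98 in siNC+8Br-cAMP and 12.36 in siNC, and fell by 2.10 on average (limma, adjusted p = 0.00356). PHGDH, SHMT2 and PSAT1, described above, were called lower in both media and also belong to the list around ATF4. The counts of the serine list and the ATF4 list therefore overlap and are not separate results.

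Of 28 measured genes by which mTORC1 senses amino acids, 1 was called higher and 1 lower with YAP/TAZ siRNA in the 8Br-cAMP medium, and 3 higher and 1 lower without it. The shares called over all genes were 11.5% and 14.9%, so the list was not above them. With 8Br-cAMP 1 was higher and 5 lower after siYT, and 2 higher and 3 lower after siNC, where 8.21% and 8.06% of all genes were called. SESN2, a leucine sensor, was at 6.73 in siYT+8Br-cAMP and 8.12 in siYT, against 7.10 in siNC+8Br-cAMP and 9.31 in siNC, and it fell by 1.80 on average with 8Br-cAMP (limma, adjusted p = 0.0238). Its siYT+8Br-cAMP value lies under the background limit, and SESN2 also belongs to the list around ATF4. CASTOR2, a relative of the arginine sensor CASTOR1, was at 9.99 in siYT+8Br-cAMP and 8.92 in siYT, against 9.31 in siNC+8Br-cAMP and 6.95 in siNC, and rose by 1.72 with 8Br-cAMP (limma, adjusted p = 0.0463).

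Of 14 measured amino acid and peptide carriers of other families, 1 was called lower in both media, where 3.89% of all genes were. It was SLC25A22, a mitochondrial glutamate carrier, at 5.59 in siYT+8Br-cAMP and 6.41 in siYT, against 7.98 in siNC+8Br-cAMP and 8.49 in siNC, and it fell with YAP/TAZ siRNA (limma, adjusted p = 0.00165). The 8 vesicular carriers of glutamate, GABA, amines, acetylcholine and nucleotides all stayed under the level filter.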

How the data were processed

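RNA of 4 KGN cultures, 1 per group, was measured on Clariom S Human arrays. Per the labels, the authors deposited log2 values from RMA, run in Expression Console, with no version or genome build stated in the labels. RMA corrects background, shares one distribution over arrays and summarises probes. The deposited log2 values reach 19.36, above the log2 limit of a 16-bit scanner, so they may have been rescaled after RMA, and folds need not be ratios of signals.

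Probe sets that named exactly 1 gene (17709 of 24351) gave 17687 genes, and the probe sets of 20 genes with several were averaged. Differences of log2 values between 2 arrays were called at 1 or more with the higher value at the level filter. For a call in both media or after both siRNAs, both differences had to reach 1 in the same direction and the highest of the 4 arrays the filter. The additive model used limma (version 3.58.1, R version 4.3.3; Benjamini-Hochberg, 0.05). It was also run on simulated data that held no interaction. That run cannot show how the model behaves where its error contains the interaction, as it does here. Precision is limited by the number of arrays. The transporters and gene lists were chosen with earlier results of these data known. Given with 4 values are the transporters called at least once, of those never called the 3 with the largest mean difference for each agent, and the 5 highest by level. Of each list, up to 4 genes with the largest mean differences are named. SLC6A3, SLC6A2 and SLC38A6 are named as single genes after their values were seen. Alternatives were cyclic loess, centring each array on its median, log2 of the linear value plus 32, other level filters, a size of 1.5-fold and, for limma, a trend in the variance prior.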

Additional observations from a re-analysis of the deposited data

Results flagged for a closer look

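For 5 transporters the sign of a difference was opposite in the 2 cases and the difference of differences reached the size of a call. The share of all genes that met both conditions was not determined. For the difference of differences alone 8.39% of all genes were called, so these 5 are not read as a trait of the family. With 1 array per group these contrasts were not tested. SLC7A5 differed by 0.30 with 8Br-cAMP after siYT and -1.13 after siNC, and by 0.31 with and -1.12 without 8Br-cAMP for the siRNA, so its difference of differences was 1.43. SLC38A2 went the other way, with -0.26 after siYT and 1.16 after siNC for 8Br-cAMP, and -0.28 with and 1.14 without 8Br-cAMP for the siRNA, a difference of differences of -1.42. For SLC43A1 8Br-cAMP gave 1.47 after siYT and -0.26 after siNC, 1.73 apart. Its siYT value lay under the level filter, and its siYT+8Br-cAMP and siYT values both lay under the background limit. For SLC7A1 it gave 0.36 after siYT and -0.67 after siNC, 1.04 apart. For SLC6A8 it gave -0.05 after siYT and 1.44 after siNC, a difference of differences of -1.49, where the first value is close to 0.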

How the results depend on the processing

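Among the 22 transporters called at least once there were 50 calls over the 5 differences, and 45 of them were kept under all 6 alternatives of scaling, offset, level filter and size. Kept were 49 with cyclic loess, 47 with each array centred, 46 with the offset and 48 with the level filter from the negative controls. Dropping the level filter or lowering the size can only add calls, so all 50 had to be kept there. No call changed sign, which for most settings was fixed in advance. The level filter and size settings leave the differences as they are. The offset keeps the order of any 2 arrays, and centring shifts all genes alike by far less than 1. The 5 that were lost under some alternative were SLC36A4 and SLC38A7 with the siRNA in the 8Br-cAMP medium, SLC38A9 with the siRNA without it, SLC43A1 with 8Br-cAMP after siYT, and the difference of differences of SLC7A8. A level filter from the negative controls ended the calls of SLC38A7 and SLC43A1. SLC36A4 was at -0.96 and SLC38A7 at -0.97 with each array centred, SLC38A9 at 0.91 and SLC43A1 at 0.98 with an offset of 32, and SLC7A8 at -0.97 with each array centred. At a size of 1.5-fold, 14 transporters were called for 8Br-cAMP after siNC (against 8) and 14 for the difference of differences (against 7), with 19.9% and 21.1% of all genes called. Without a level filter there were 11 for the difference of differences, and 15.6% of all genes. In the limma model, log2 of the linear value plus 32 left 0 transporters and 0 genes for either effect, with 14 transporters (23.7%) for the siRNA and 10 (16.9%) for 8Br-cAMP at an unadjusted p under 0.05, beside 22.4% and 15.7% of all genes. For 8Br-cAMP limma passed 7 transporters after cyclic loess, 5 with a level filter from the negative controls, 4 with a trend in the variance prior and 3 with each array centred, against 2, and the cause was not tested. For the siRNA these 4 settings gave 11 or 12, against 12. After cyclic loess, with the trend and with centring, the shares of all genes that passed are not set beside these counts. The counts are therefore not read as a result about the transporters. With the level filter from the negative controls only 25 transporters and 8587 genes were tested, and 24.8% of those genes passed for the siRNA and 8.84% for 8Br-cAMP. Centring each array moved the median over all genes to 0.11 for the siRNA with 8Br-cAMP and to 0.10 for the difference of differences. No paired analysis was possible because each group holds 1 array. Signals near the negative controls limit the sizes for SLC7A8, SLC1A3, SLC43A1, SLC43A2 and SLC38A7.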
